A study of Mus musculus with 2 samples.

Results

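Genes of cyclic AMP (cAMP) signalling were compared between whole lungs of mice bearing Lewis lung carcinoma (LLC) cells that overexpressed TDAG8 and whole lungs bearing vector-transfected LLC cells. The set covers Gs-coupled and proton-sensing receptors, the Gs protein, adenylyl cyclases, protein kinase A, phosphodiesterases, Epac and the CREB factors. Its members were the 44 genes of a fixed list, each read by every Affymetrix probe set annotated to that gene alone. Of the 44 genes, 38 had such a probe set, 109 probe sets in all, out of 18193 genes with a single-gene probe set in the series. Adrb1, Adora2a, Adora2b, Pde4c, Rapgef4 and Atf1 had none and are not analysed here. For Atf1 a probe set shared with its pseudogene was left aside for that reason.

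In this pathway a ligand, or extracellular protons in the case of TDAG8, activates a receptor coupled to Gs, which stimulates adenylyl cyclase to make cAMP. cAMP activates protein kinase A by binding its regulatory subunits, and it also activates the Epac exchange factors. Phosphodiesterases break it down. Protein kinase A phosphorylates CREB, which with the CRTC coactivators and the acetyltransferase CBP switches on genes that carry a cAMP response element. In the lung, cAMP relaxes airway and vascular smooth muscle, tightens the endothelial barrier and restrains inflammatory myeloid cells.

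The TDAG8 group were C57BL/6 mice, 6 to 8 weeks old, given 500000 LLC cells overexpressing TDAG8 in 200 µL by tail vein. The control group were mice of the same strain and age given the same number of vector-transfected LLC cells. Lungs of both groups were taken on day 19, and total RNA of 10 lungs was pooled for 1 array per group. Both groups therefore carried LLC cells, and the labels do not say whether the transfected lines were clones or pools. LLC is a lung carcinoma line of C57BL origin that forms lung tumours after intravenous injection. A single array stood for each group, which leaves no spread between replicates, no test and no error on any value, so each difference describes these 2 pooled RNAs.

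Intensities are printed as deposited, on a linear scale, and are not compared between genes, since each probe set has its own response. The floor was the median intensity of each array, 24.3 in the TDAG8 array and 26.3 in the control array, and a ratio against a lower value is only a bound. The ratio of TDAG8 over control was centred on the median gene, a shift of -0.06 on the log2 scale. The lung markers were present, Sftpc of alveolar type 2 cells having an intensity of 6605 in the TDAG8 array and 7476 in the control array. Every single-gene marker of every cell type list examined had an intensity above 0 on both arrays. In whole-lung RNA, fewer cells of a type and less RNA per cell cannot be told apart.

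Promoter stretches of 5 members from the RefSeq table for GRCm38.p6 are shown because they display the element through which CREB acts, or its lack. Capitals mark the full cAMP response element TGACGTCA, which reads the same on both strands, or its core TGACG on either strand (CGTCA on the strand shown). The Prkar1a stretch lies at chr11:109650889-109650918, plus strand, from 60 to 31 bases before one of its annotated starts. The others are the 60 bases before a start, at chr16:4420499-4420558 on the minus strand for Adcy9, and on the plus strand at chr8:88282932-88282991 for Adcy7, chr4:102421495-102421554 for Pde4b and chr12:98268575-98268634 for Gpr65.
Prkar1a: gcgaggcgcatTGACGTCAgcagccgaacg
Adcy9: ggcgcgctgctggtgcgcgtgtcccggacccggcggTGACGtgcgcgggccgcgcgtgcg
Adcy7: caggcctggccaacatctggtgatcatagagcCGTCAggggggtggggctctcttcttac
Pde4b: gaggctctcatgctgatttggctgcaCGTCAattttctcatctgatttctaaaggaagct
Gpr65: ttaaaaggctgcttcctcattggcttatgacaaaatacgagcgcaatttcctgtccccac

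The table held windows of 250 bases before to 50 after the start for 36 of the 44 members, 67 windows in all. The full element was found in 1 of those 36 genes, Prkar1a, and in 2.03% of 27025 genes in the table. The core was found in 17 of the 36 genes, or 47.2%, against 23.0% of all genes in the table. Members have more annotated starts per gene than the table as a whole, and counted by window the core was in 31.3% of members' windows, against 20.8% of all windows. The core is contained in the full element, so each full element was also counted as a core. Prkar1a, with the full element, differed little between the arrays (log2 ratio -0.08), while Adcy9 and Adcy7, both with a core close to a start, lay on opposite sides of 0 (-0.95 and 0.48). Measured genes with a core had a median log2 ratio of 0.00 over 13 genes, and those without one had -0.13 over 15 genes. A motif match is a description of letters and not a binding site.

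Across the pathway 26 of the 35 measured members differed by less than 1.5-fold, near the share over all measured genes, 73.5%. Of the 38 members with a probe set, 35 exceeded the floor of 1 array or of both, and 33 exceeded both. Those 35 are not all members, and Gpr132, Adcy1 and Pde1a were below the floor on both arrays. At least 2-fold higher in the TDAG8 array were 2 members, Gpr65 and Pde3b, or 5.71% of the 35, against 5.41% of the 11949 genes measured. At least 2-fold lower were 0 members, against 1.19% of all genes. At 1.5-fold, 3 members were higher, or 8.57% against 14.4% of all genes, and 6 were lower, or 17.1% against 12.1%. Below 0 lay 24 of the 35 members, or 68.6% against 50.1% of all genes, and above 0 lay 11, where the array had 49.9%, with a median log2 ratio of -0.10 against 0.00. The 2-fold share is therefore near the background. At 1.5-fold the shares rest on 3 higher and 6 lower genes of 35, too few to set the members apart from the array, and with no test. The lower count became 7 after quantile normalization, after loess centring and with a 30th-percentile floor. It became 4 with all probe sets averaged and 2 with an offset in place of the floor.

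**Figure D1:**
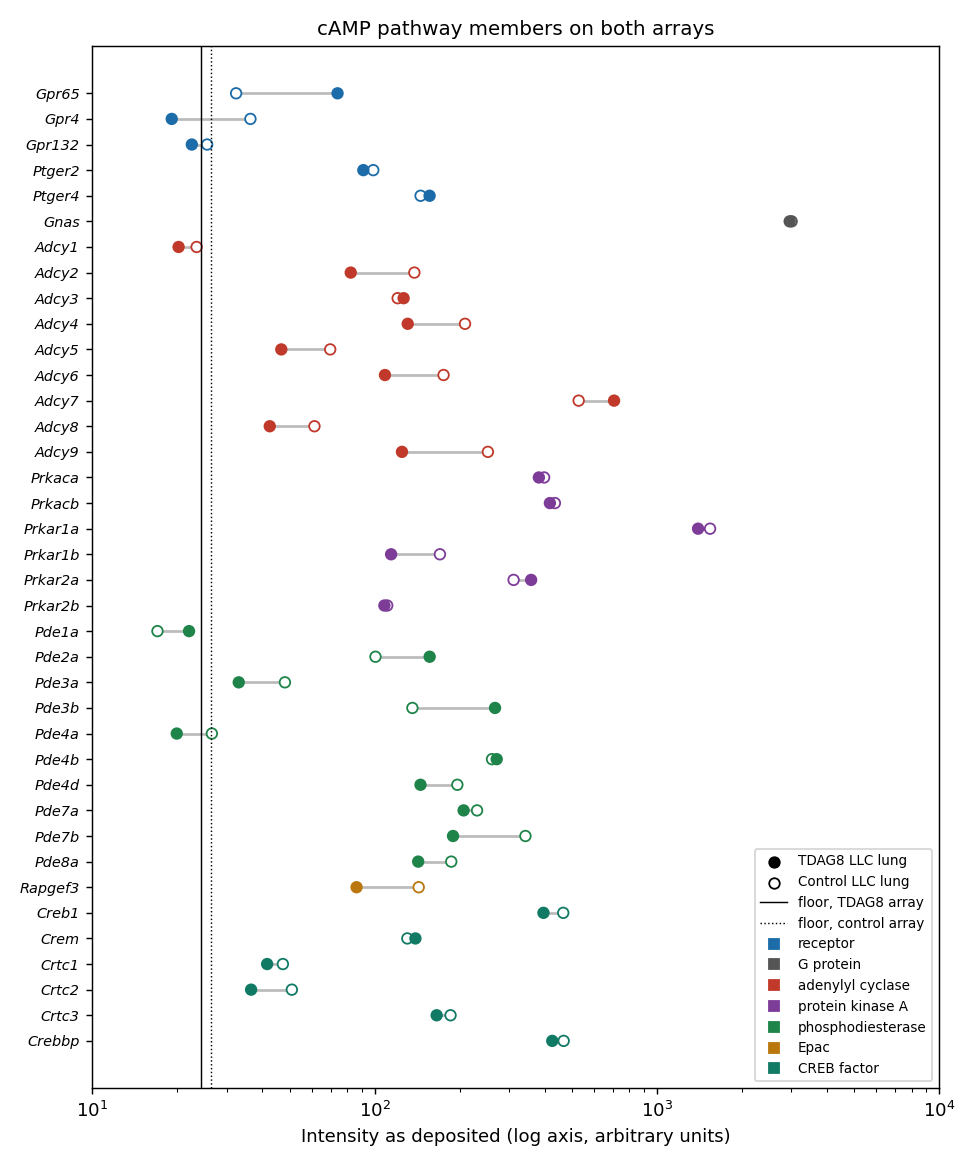
Intensity of each member on the TDAG8 array (filled) and the control array (open), on a log axis in arbitrary units, for the 38 members with a probe set, coloured by step of the pathway, with the floor of each array as a vertical line. Adcy2, Adcy4, Adcy6 and Adcy9 sit to the left in the TDAG8 array, while Gpr65, Pde2a and Pde3b sit to the right.

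Among the receptors, Gpr65 stood apart from the others. Gpr65, which encodes TDAG8 itself, had an intensity of 73.9 in TDAG8 lungs, against 32.3 in control lungs, and ranked 390 from the top among the 11949 measured genes. A single probe set read the gene, so no other probe set bears on that value. The labels give neither the species nor the extent of the transfected TDAG8 sequence, so it is unknown if the mouse probes detect it. Gpr65 is also known as a receptor of lymphocytes and macrophages, so host cells can carry its transcript. Of the 9 measured macrophage markers 7 were at least 1.5-fold higher in TDAG8 lungs, or 77.8% against 14.4% of all genes. Their summed intensity, which Lyz2 largely carries, was 7983 in TDAG8 lungs and 7752 in control lungs. Of 9 measured T and natural killer cell markers 1 was at least 1.5-fold higher, or 11.1%, near the share of all genes. Of 4 measured B cell markers 0 were, and all 4 were below 0, against 50.1% of all genes. The part of these cell types in the Gpr65 value was not tested. Raising the floor to the 65th percentile put the control value below it, which turned the log2 ratio, 1.25, into a bound of at least 0.29.

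The other proton-sensing receptors gave low signals. Gpr4, a receptor of endothelial cells, had an intensity of 19.1 in TDAG8 lungs, below the floor, against 36.3 in control lungs, which makes it at least 1.43-fold lower. Gpr132, found in lymphocytes and macrophages, had 22.5 in TDAG8 lungs and 25.5 in control lungs with the brighter of its 2 probe sets, below the floor in each, so no ratio is given. All 11 endothelial markers were lower than the median gene in TDAG8 lungs, against 50.1% of all genes with a log2 ratio below 0. At least 1.5-fold lower were 9 of them, or 81.8% against 12.1% of all genes. Their summed intensity was 5319 in TDAG8 lungs and 9305 in control lungs. The part of the endothelial markers in the Gpr4 value was not tested.

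The prostaglandin E receptors that couple to Gs were close to even. Ptger2, which encodes EP2, had 91.2 in TDAG8 lungs and 98.9 in control lungs, a log2 ratio of -0.06. Ptger4, which encodes EP4, had 156.6 in TDAG8 lungs and 145.5 in control lungs, a log2 ratio of 0.16. A further probe set of Ptger4 was below the floor on both arrays. Neither receptor differed by more than the typical gap between probe sets of the same gene given below.

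Gnas, the stimulatory G protein alpha subunit, was even between the arrays. It had 2957 in TDAG8 lungs and 3004 in control lungs, a log2 ratio of 0.04, which took the opposite sign under 3 of 7 alternatives. That probe set can read several transcripts of the imprinted Gnas locus, and the other 4 probe sets of the gene were below the floor on both arrays.

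Of the steps with more than 1 measured gene, the adenylyl cyclases had the median farthest from 0, and their isoforms lay on both sides of it. Of 8 measured isoforms 6 were below 0, or 75% against 50.1% of all genes, and 4 were at least 1.5-fold lower, or 50% against 12.1%. The median log2 ratio was -0.57. Adcy9, a widely expressed isoform that responds little to forskolin, had 125 in TDAG8 lungs, against 252 in control lungs, 1.94-fold lower, and ranked 191 from the lowest among measured genes. Its further probe sets, each measured on both arrays, gave log2 ratios of -1.06, -0.60 and -0.40. All 4 probe sets thus had the same sign, although their sizes spread from -0.40 to -1.06.

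Adcy2, Adcy4 and Adcy6 were each read by a single probe set. Adcy2, an isoform stimulated by G protein beta-gamma subunits together with Gs, had 82.3 in TDAG8 lungs, against 138 in control lungs, a log2 ratio of -0.69. Adcy4, a related isoform, had 131 in TDAG8 lungs, against 209 in control lungs, a log2 ratio of -0.62. Adcy6, a calcium-inhibited isoform of heart, vessel and many other tissues, had 108.8 in TDAG8 lungs, against 175.5 in control lungs, a log2 ratio of -0.63. These 3 isoforms lay between 1.53-fold and 1.61-fold lower and kept their sign under all 8 alternatives, but none passed 1.5-fold with an offset in place of the floor.

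Adcy5 and Adcy8 were lower by less than 1.5-fold. Adcy5, the closest relative of Adcy6 and prominent in heart and striatum, had 46.7 in TDAG8 lungs and 69.6 in control lungs, and 2 of its 4 probe sets gave log2 ratios of -0.52 and -0.57 while the others were below the floor on both arrays. Adcy8, a calcium-stimulated isoform best known in brain, had 42.5 in TDAG8 lungs and 61.2 in control lungs, a log2 ratio of -0.47. Adcy5 became a bound of -0.18 under the higher floor. All 5 measured smooth muscle markers and 5 of 6 cardiac muscle markers were also below 0, against 50.1% of all genes. Their summed intensities were 2307 and 2212 in TDAG8 lungs, against 3428 and 3645 in control lungs. Below 0 as well were all 11 endothelial, all 6 alveolar type 1, all 5 measured alveolar type 2 and all 6 airway markers. All 7 measured proliferation markers were at least 2-fold higher, against 5.41% of all genes, with a summed intensity of 3053 in TDAG8 lungs and 617 in control lungs. The part of these lists in the lower cyclase values was not tested.

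Adcy7 and Adcy3 lay on the other side. Adcy7, the main isoform of blood-derived cells, had 705.5 in TDAG8 lungs, against 528.5 in control lungs, 1.39-fold higher. Its further probe sets gave 0.58 and 0.15 on the log2 scale, so all 3 were above 0, as was the gene under every alternative run, between 0.41 and 0.58. Adcy3, known from the olfactory system and present in many tissues, had 126.7 in TDAG8 lungs and 120.7 in control lungs, a log2 ratio of 0.13. A dimmer probe set of Adcy3 had 61.1 in TDAG8 lungs and 35.1 in control lungs, a log2 ratio of 0.86, and another gave 0.24. The 3 measured probe sets of Adcy3 thus shared a sign but differed in size. Macrophage and neutrophil markers had median log2 ratios of 1.11 and 0.47, and their part in the Adcy7 value was not tested.

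**Figure D2:**
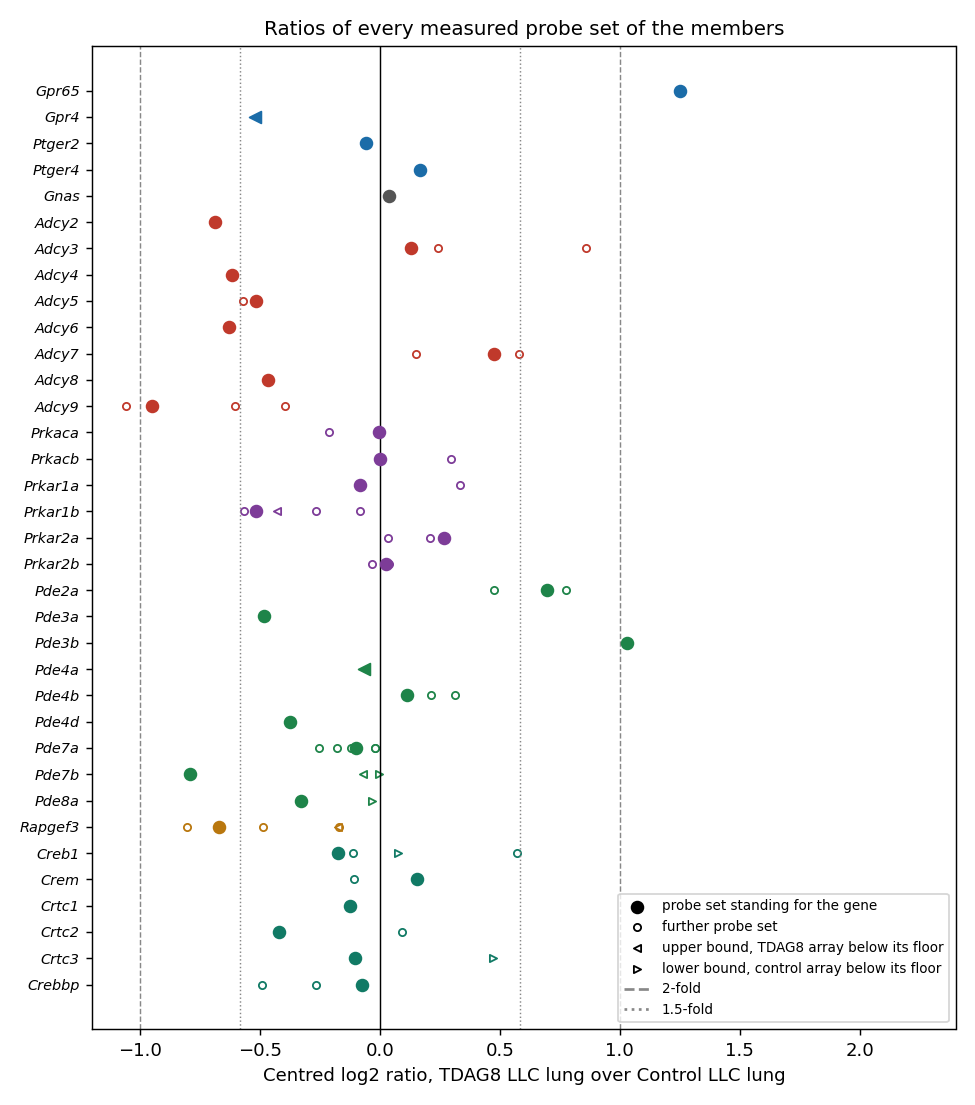
Centred log2 ratio of TDAG8 LLC lung over Control LLC lung for each measured probe set of the 35 measured members, the larger filled symbol being the probe set that stands for the gene and triangles marking bounds, with dashed lines at 2-fold and dotted lines at 1.5-fold. By the filled symbols the cyclases spread from -0.95 for Adcy9 to 0.48 for Adcy7, while the kinase subunits and CREB factors lie nearer to 0. Further probe sets reach -1.06 for Adcy9, 0.86 for Adcy3, -0.57 for Prkar1b and 0.57 for Creb1.

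Protein kinase A differed little. Its catalytic subunit genes were even: Prkaca had 382 in TDAG8 lungs and 399 in control lungs, and Prkacb had 418 in TDAG8 lungs and 435 in control lungs, both with a log2 ratio of 0.00 after centring. Prkar1a, the widely expressed type I regulatory subunit, had 1400 in TDAG8 lungs and 1544 in control lungs, a log2 ratio of -0.08. A further Prkar1a probe set gave 0.33, so the direction of Prkar1a is not settled by these arrays.

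Of the remaining regulatory subunits, Prkar1b was the one farthest from 0. Prkar1b, a type I subunit best known in the nervous system, had 114 in TDAG8 lungs, against 170 in control lungs, 1.43-fold lower, and its further probe sets measured on both arrays gave -0.57, -0.27 and -0.08. Prkar2a had 359 in TDAG8 lungs and 311 in control lungs, a log2 ratio of 0.26, and its further probe sets gave 0.21 and 0.03. Prkar2b, the type II subunit typical of fat and brain, had 108 in TDAG8 lungs and 111 in control lungs, a log2 ratio of 0.03. In all, 0 of the 6 subunit genes were 1.5-fold different, where 73.5% of all genes were under that limit, and the median log2 ratio was 0.00. Prkar1b passed 1.5-fold after quantile normalization (-0.59) and after loess centring (-0.60).

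Rapgef3, which encodes Epac1, the cAMP-activated exchange factor for Rap proteins in endothelium and other tissues, was 1.59-fold lower. It had 86.3 in TDAG8 lungs, against 143 in control lungs, a log2 ratio of -0.67. Its other probe sets measured on both arrays gave -0.81, -0.49 and -0.17. All of them were below 0, and the mean over all probe sets was -0.45, under 1.5-fold. As with Gpr4, the endothelial markers were lower on the same array, and their part was not tested.

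The phosphodiesterases held the other member past 2-fold and had members past 1.5-fold on both sides. Pde3b, a cAMP hydrolase inhibited by cyclic GMP and known for insulin action in fat and liver, had 267 in TDAG8 lungs, against 136 in control lungs, 2.04-fold higher, and ranked 600 from the top among measured genes. It was read by a single probe set, so no other probe set bears on it. Its log2 ratio ran from 0.91 to 1.05 over 8 alternatives and passed 2-fold under 4 of them. Pde2a, a hydrolase stimulated by cyclic GMP, had 157 in TDAG8 lungs, against 101 in control lungs, 1.62-fold higher. Its further probe sets gave 0.78 and 0.48, so all 3 were above 0. It fell short of 1.5-fold with an offset (0.58) and when probe sets open to cross-hybridisation were dropped (0.48).

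Pde7b had the lowest ratio of the phosphodiesterases among the members, but its support was uneven. Pde7b, a cAMP-specific enzyme, had 190 in TDAG8 lungs, against 342 in control lungs, 1.73-fold lower. Its other 2 probe sets lay near the floor and gave only bounds, and with the mean over all probe sets the log2 ratio of -0.79 became -0.27. Its relative Pde7a had 207 in TDAG8 lungs and 231 in control lungs, a log2 ratio of -0.10, and all 7 of its probe sets were between -0.26 and -0.02. Of Pde3a, the relative of Pde3b found in heart, platelets and vessels, the intensity was 33.0 in TDAG8 lungs and 48.1 in control lungs, a log2 ratio of -0.49 close to the floor. Pde3a and Pde3b thus lay on opposite sides of 0, which 1 measured probe set for each supports.

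The Pde4 family, the cAMP-specific enzymes blocked by rolipram, differed by less than 1.5-fold. Pde4b, the isoform of monocytes and neutrophils that inflammatory stimuli induce, had 271 in TDAG8 lungs and 261 in control lungs, a log2 ratio of 0.11, and its further measured probe sets gave 0.31 and 0.21. Pde4d had 145 in TDAG8 lungs and 196 in control lungs, a log2 ratio of -0.38. Pde4a had 19.9 in TDAG8 lungs, below the floor, and 26.5 in control lungs, just above it, so its bound of -0.07 is close to no difference. Of the 3, Pde4d was the farthest from 0 and was below 0 under all 8 alternatives. Pde8a, a high-affinity cAMP enzyme, had 143 in TDAG8 lungs and 187 in control lungs, a log2 ratio of -0.33. Its other probe set, near the floor in TDAG8 lungs and below it in control lungs, gave a bound of at least -0.03. With the mean over all probe sets the Pde8a ratio was -0.16. Pde1a, stimulated by calcium and calmodulin, was below the floor, with 22.0 in TDAG8 lungs and 17.0 in control lungs.

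At the nuclear end of the pathway 0 of 6 measured CREB factor genes were 1.5-fold different, where 73.5% of all genes were under that limit. Below 0 were 5 of them, or 83.3% against 50.1%. Of those 5, Creb1, Crebbp, Crtc1 and Crtc3 were within the gap of 0.20 between probe sets of the same gene given below. That share therefore gives no settled direction for the step. Creb1, the factor that protein kinase A phosphorylates, had 397 in TDAG8 lungs and 466 in control lungs, a log2 ratio of -0.17. A dimmer Creb1 probe set gave 0.57, with 56.7 in TDAG8 lungs and 39.8 in control lungs, and the mean over all probe sets was 0.06. Creb1 thus had no settled direction. Crem, a relative that also gives the cAMP-induced repressor ICER, had 139.5 in TDAG8 lungs and 130.6 in control lungs, a log2 ratio of 0.15, and a further probe set gave -0.11. Crebbp, which encodes CBP, had 426 in TDAG8 lungs and 468 in control lungs, a log2 ratio of -0.08, with further probe sets at -0.49 and -0.27.

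The CRTC coactivators, which enter the nucleus when cAMP rises, differed by less than 1.5-fold by their brightest probe sets. Those of Crtc2 and Crtc3 had a further probe set of the opposite sign. Crtc1 had 41.6 in TDAG8 lungs and 47.3 in control lungs, a log2 ratio of -0.13. Crtc2 had 36.5 in TDAG8 lungs and 50.9 in control lungs, a log2 ratio of -0.42, while its other probe set gave 0.09. Crtc3 had 166 in TDAG8 lungs and 186 in control lungs, a log2 ratio of -0.11 whose sign turned to 0.20 with the mean over all probe sets. Its other probe set, below the floor in control lungs, gave a bound of at least 0.47. The activity of CREB and of its coactivators is set largely by phosphorylation and location, which RNA levels do not report.

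Probe sets of the same gene gave a measure of spread within the arrays, though none between animals. Of the members, 18 had at least 2 probe sets that exceeded both floors, and the ratios of the brightest and the next brightest differed by a median of 0.20 on the log2 scale, against 0.20 over 4775 genes of the array. The 90th percentile of that gap was 0.44 for members and 0.58 for all genes. Both probe sets had the same sign in 14 of the 18 members, or 77.8% against 77.0% of all genes. Of the 3 members at least 1.5-fold different by the brightest, Adcy9, Pde2a and Rapgef3, all had the same sign in both. Of the 1102 genes of the array with such a difference, 93.5% had the same sign in both. Log2 ratios under about 0.20 are therefore within the gap that probe sets of the same gene show on these arrays.

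**Figure D3:**
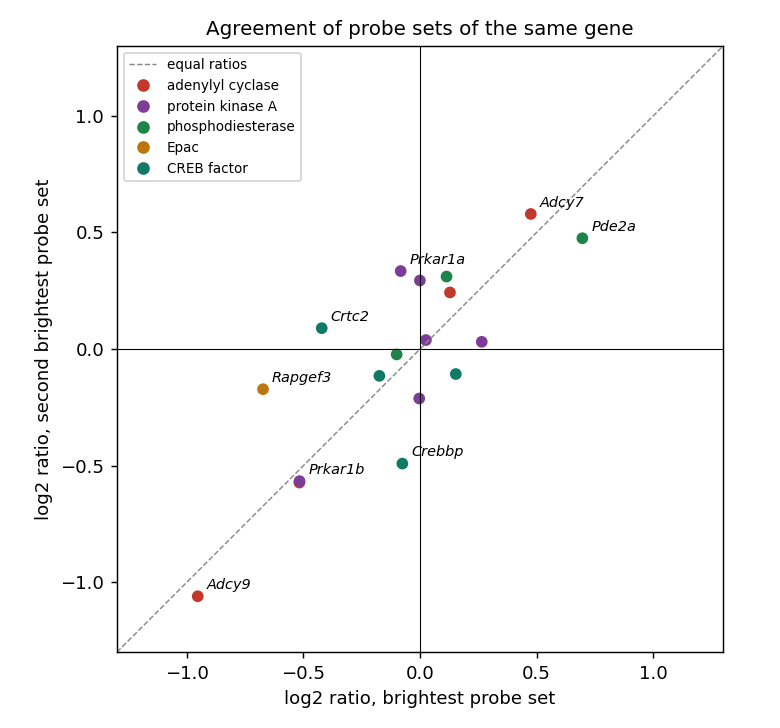
Centred log2 ratio from the brightest probe set (horizontal) against that from the next brightest (vertical) for the 18 members with at least 2 probe sets that exceeded both floors, with a dashed line where both are equal. Adcy9, Adcy7 and Prkar1b lie close to the line. For Crtc2, and likewise for Prkar1a, the brightest probe set is below 0 and the next brightest above it.

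Other genes of the pathway, on 6 lists with 97 genes, were examined beside the members. Of these, 68 were measured. At 1.5-fold 6 were higher and 18 lower, or 8.82% and 26.5%, against 14.4% and 12.1% of all genes. Below 0 lay 46, or 67.6% against 50.1% of all genes. The median log2 ratio of the 68 genes was -0.27.

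The receptor of calcitonin gene-related peptide and adrenomedullin, which signals through Gs in vessels, is built from Calcrl and a Ramp partner. Calcrl had 1497 in TDAG8 lungs, against 2446 in control lungs, a log2 ratio of -0.65. Its partners Ramp2, Ramp1 and Ramp3 had log2 ratios of -0.85, -0.94 and -0.13, and Glp1r, the incretin receptor, had -0.64. Calcrl, Ramp1, Ramp2 and Glp1r were the 4 genes at least 1.5-fold lower among 7 measured further Gs receptors and their partners. That was 57.1%, against 12.1% of all genes, and 0 of the 7 were 1.5-fold higher, against 14.4%. Calcrl and Ramp2 are known endothelial genes, and the endothelial markers had a median log2 ratio of -0.75. The part of the endothelial markers in the Calcrl and Ramp2 values was not tested.

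On the inhibitory side the Gi alpha subunits differed from each other. Gnai1 had 238 in TDAG8 lungs, against 421 in control lungs, a log2 ratio of -0.76, while Gnai2 had 0.05 and Gnai3 had 0.40. S1pr1, the Gi-coupled sphingosine 1-phosphate receptor of endothelium and lymphocytes, had a log2 ratio of -0.83. Rgs1, a lymphocyte and myeloid regulator that shortens Gi signals, was above the floor in TDAG8 lungs only and at least 1.99-fold higher. Of 9 measured genes on that list 1 was at least 1.5-fold higher and 2 lower, or 11.1% and 22.2%, against 14.4% and 12.1% of all genes.

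Anchoring proteins, which hold protein kinase A at its sites of action, lay mostly below 0, 12 of 16 measured genes with the kinase inhibitors and Popeye proteins included. That was 75%, against 50.1% of all genes. Akap13 had 557 in TDAG8 lungs, against 1070 in control lungs, a log2 ratio of -0.88, and Akap12 had -0.68. Akap2 had 1187 in TDAG8 lungs and 1824 in control lungs, a log2 ratio of -0.56. At least 1.5-fold lower were 2 of the 16, or 12.5% against 12.1% of all genes. No gene of that list was 1.5-fold higher, against 14.4% of all genes, the highest being at 0.51.

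Further enzymes that remove cyclic nucleotides went both ways. Pde5a, the cyclic GMP enzyme of vascular smooth muscle, had 379 in TDAG8 lungs, against 620 in control lungs, a log2 ratio of -0.65. Pde8b and Pde9a had -0.85 and -0.82. Abcc4, a transporter that exports cAMP from cells, had 124.5 in TDAG8 lungs, against 73.0 in control lungs, 1.78-fold higher. Of 6 measured genes on that list 3 were at least 1.5-fold lower and 1 was higher, or 50% and 16.7%, against 12.1% and 14.4% of all genes.

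Of the other CREB and ATF factors and their regulators, 2 of 14 measured genes were at least 1.5-fold higher, or 14.3% against 14.4% of all genes. By that much 1 was lower, or 7.14% against 12.1%. Creb5, a relative of Atf2, had 76.4 in TDAG8 lungs, against 42.2 in control lungs, a log2 ratio of 0.91, and the stress-induced factor Atf3 had 0.86. Ep300, the partner of CBP, had a log2 ratio of -0.63. Atf4, the factor of the integrated stress response, had 1068 in TDAG8 lungs and 869 in control lungs, a log2 ratio of 0.36.

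Genes known as CREB targets lay on both sides of 0. Of 16 measured targets 12 were below 0, or 75% against 50.1% of all genes. At 1.5-fold 6 were lower, or 37.5% against 12.1%, and 2 were higher, or 12.5% against 14.4%. The median log2 ratio was -0.44. Bdnf had -0.94, Per1 -0.77, Btg2 -0.75 and Gem -0.60, and Thbd, the thrombomodulin of endothelium, had -0.62. Ppargc1a was below the floor in TDAG8 lungs and at least 1.53-fold lower. Junb had 224.7 in TDAG8 lungs, against 127.5 in control lungs, a log2 ratio of 0.88, and Rrad was above the floor in TDAG8 lungs only and at least 2.07-fold higher. Of the early targets, the Nr4a receptor genes had log2 ratios of -0.42 for Nr4a1, -0.05 for Nr4a2 and -0.21 for Nr4a3, while Fos had 0.44 and Ier2 had 0.16. Thbd is also an endothelial gene, and many of these targets respond to signals other than cAMP. The part of cell types or of any signal in these values was not tested.

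**Figure D4:**
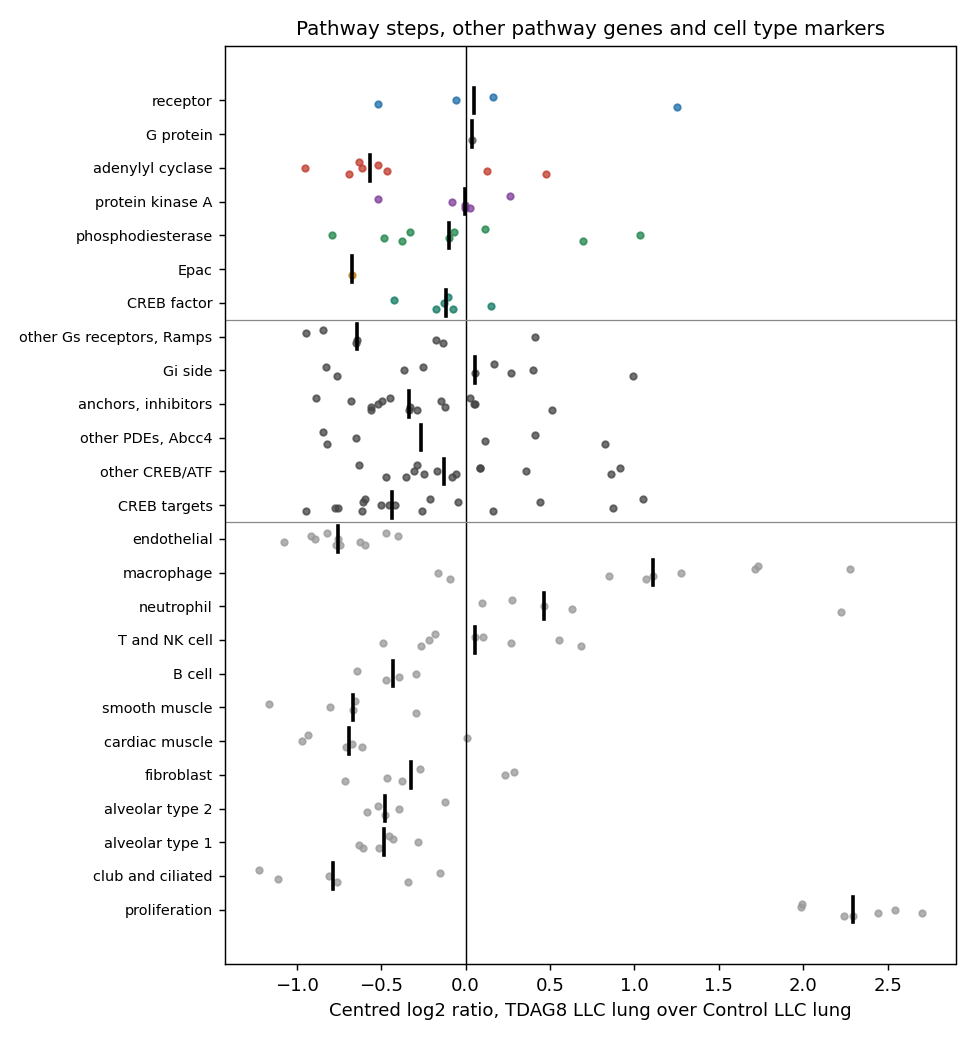
Centred log2 ratio of TDAG8 LLC lung over Control LLC lung for every measured gene of the 7 pathway steps (top), the 6 lists of other pathway genes (middle) and the 12 lists of cell type and proliferation markers (bottom), with a black bar at each median. The adenylyl cyclases have a median of -0.57 and the endothelial markers of -0.75, while macrophage markers have 1.11 and proliferation markers 2.30.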

How the data were processed

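Total RNA of 10 whole lungs per group was pooled, and 2 µg was turned into biotin-labelled cRNA by oligo(dT)-primed synthesis for 1 Affymetrix array per group, per the labels' protocols. The authors deposited a linear-scale intensity for each probe set. With 2% of probe sets trimmed at each end, the mean of each column is 100.0. The labels name no image software, background correction or detection calls. Precision is limited by the number of arrays.

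Of 45101 probe sets, 64 controls were set aside. The rest comprised 34945 with a single gene symbol, 932 with more than that and 9160 without any, and 34741 of the first were matched by gene identifier to RefSeq symbols (GRCm38.p6). Each gene was represented by its brightest probe set (mean log2 intensity). Values under the array's 50th percentile were raised to it, genes below it on both arrays were left out, and 11949 of 18193 genes remained. Log2 ratios of TDAG8 over control were centred on the median over 11044 genes above the floor on both arrays, because the column medians differed by -0.11. No test was run. Genes were counted at 2-fold and 1.5-fold. All 44 members were accounted for, and of the other pathway genes those at least 1.5-fold different and the brightest of each list were named, with a few further examples chosen after their values were seen. The members and lists were chosen with earlier results of these data known. The steps were tested on simulated data. There were 8 alternatives. Python 3.11.15, pandas 2.3.3, NumPy 2.4.6, SciPy 1.17.1 and Matplotlib 3.10.9 were used.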

Additional observations from a re-analysis of the deposited data

How the results depend on the processing

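The counts, the medians and each measured member were recomputed under 8 alternatives, 1 choice at a time. The number of members at least 2-fold higher was 2, and became 1 without centring, after quantile normalization, after loess centring and with a 65th-percentile floor, and 0 with an offset in place of the floor; Pde3b was the member lost in the first 3, Gpr65 in the fourth and both with the offset. The number at least 2-fold lower was 0, and became 1 without centring, after quantile normalization and after loess centring, the member in each being Adcy9. The number at least 1.5-fold higher was 3, and 2 with the 65th-percentile floor, with the offset and when probe sets open to cross-hybridisation were dropped. The number at least 1.5-fold lower was 6, and 7 after quantile normalization, after loess centring and with the 30th-percentile floor. It became 4 with all probe sets averaged and 2 with the offset, which shrinks ratios of dim probe sets by construction. Averaging also takes in probe sets below the floor, raised to it, which can draw the ratio of a gene towards 0. The median log2 ratio of the members stayed below 0, between -0.17 and -0.06. Over all genes, the count at least 2-fold higher was 646, and 876 at the 30th-percentile floor, 419 at the 65th, 435 with the offset and 469 when all probe sets were averaged. The count at least 2-fold lower was 142, and 345 at the 30th-percentile floor, 68 at the 65th, 31 with the offset and 78 when all probe sets were averaged. Of the 35 measured members 27 kept their sign in every alternative that measured them, and the other 8 had log2 ratios of at most 0.17 in size. No paired analysis was possible because each group had 1 array, and for the same reason no replicate could be left out. Dim signals limit Gpr65, Gpr4, Pde3a and Pde4a, whose values lie near the floor on at least 1 array. Adcy8, Crtc1 and Crtc2 are limited as well, since they, like Gpr4, Pde3a and Pde4a, fell below the 65th-percentile floor on both arrays. Adcy5 became a bound at that floor.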
